A study of Mus musculus with 6 samples.

Results

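The genes described here are the R-spondins Rspo1, Rspo2, Rspo3 and Rspo4, the receptors Lgr4, Lgr5 and Lgr6, and the ubiquitin ligases Rnf43 and Znrf3. They were chosen by symbol, and all 9 were found among the 50559 genes of the deposited tables. Gene expression was measured by RNA sequencing of C57 mouse tissue labelled auditory cortex, in 3 libraries with the genotype label WNT3 control and 3 labelled WNT3 Overexpressing. The labels give no vector, promoter, agent, age or sex, and leave open the treatment of the control mice and whether each library is a mouse of its own. The p-values therefore cover just the spread between these libraries, which may be technical. The question of the study was how raised WNT3, a secreted Wnt ligand, alters the transcripts of this tissue.

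R-spondins are secreted proteins that raise the sensitivity of a cell to Wnt ligands. Rnf43 and Znrf3 are membrane E3 ligases that mark Frizzled receptors for removal from the cell surface. An R-spondin bridges an Lgr receptor and one of these ligases, the ligase is cleared from the membrane, and Frizzled and its co-receptor Lrp6 accumulate. Rnf43, Znrf3 and Lgr5 are themselves known target genes of Wnt/beta-catenin signalling in several tissues, so that the ligases form a negative feedback loop.

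Total counts per library ranged from 42614588 to 71803617, and 22360 genes had enough counts to be tested. Wnt3 was at 1.74 to 2.70 CPM (counts scaled to library size with TMM factors) in the controls. In the overexpression group it was at 98.8 CPM in library 1, 7.45 in library 2 and 8.71 in library 3, so that these libraries lay above every control but differed widely among themselves. The vesicular glutamate transporter gene Slc17a7, a marker of cortical excitatory neurons, had a mean of 745 ± 74.2 CPM in control and of 720.2 ± 53.5 CPM in overexpression (SD, n = 3), whereas the extraction protocol speaks of striatum. Control 2 stood apart: its median correlation with the other libraries, over log2 CPM of all tested genes, was 0.939, against 0.972 to 0.978 for the others. Its log2 CPM also declined with gene length, by 0.20 for each doubling of length relative to the mean of all libraries, where the other libraries rose by 0.03 to 0.07. For the 9 genes, fold changes that rest on control 2 are given with and without it. For other genes and for marker lists they are given with all libraries only.

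Of the 9 genes, 8 passed the filter on low counts, which asks for about 10 counts in a group's worth of libraries. In Rspo1 and Rnf43 each of the 3 overexpression libraries lay below every control, and in the other 6 tested genes the groups overlapped (no overlap in 2 of 8, beside 11.9% of all tested genes). By the quasi-likelihood test of edgeR, with p adjusted over all genes by Benjamini-Hochberg, no member passed 0.05, and nor did any other gene (0% called, lowest adjusted p 0.822). An unadjusted p under 0.05 from the same test was reached by 2 of the 8 (Rspo1 and Rnf43), beside 4.65% of all tested genes. Both were lower, beside 2.8% of all tested genes in that direction, and 0 of the 8 were higher, beside 1.86%. Groups did not overlap in the lower direction in 2 of the 8, beside 6.04% of all tested genes, and in the higher direction in 0 of the 8, beside 5.89%. Of the 8 fold changes, 4 were above 0, beside 49.3% of all tested genes, and 4 below, with a median log2 fold change of -0.01, the same to 2 decimals as the -0.01 over all tested genes.

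**Figure D1:**
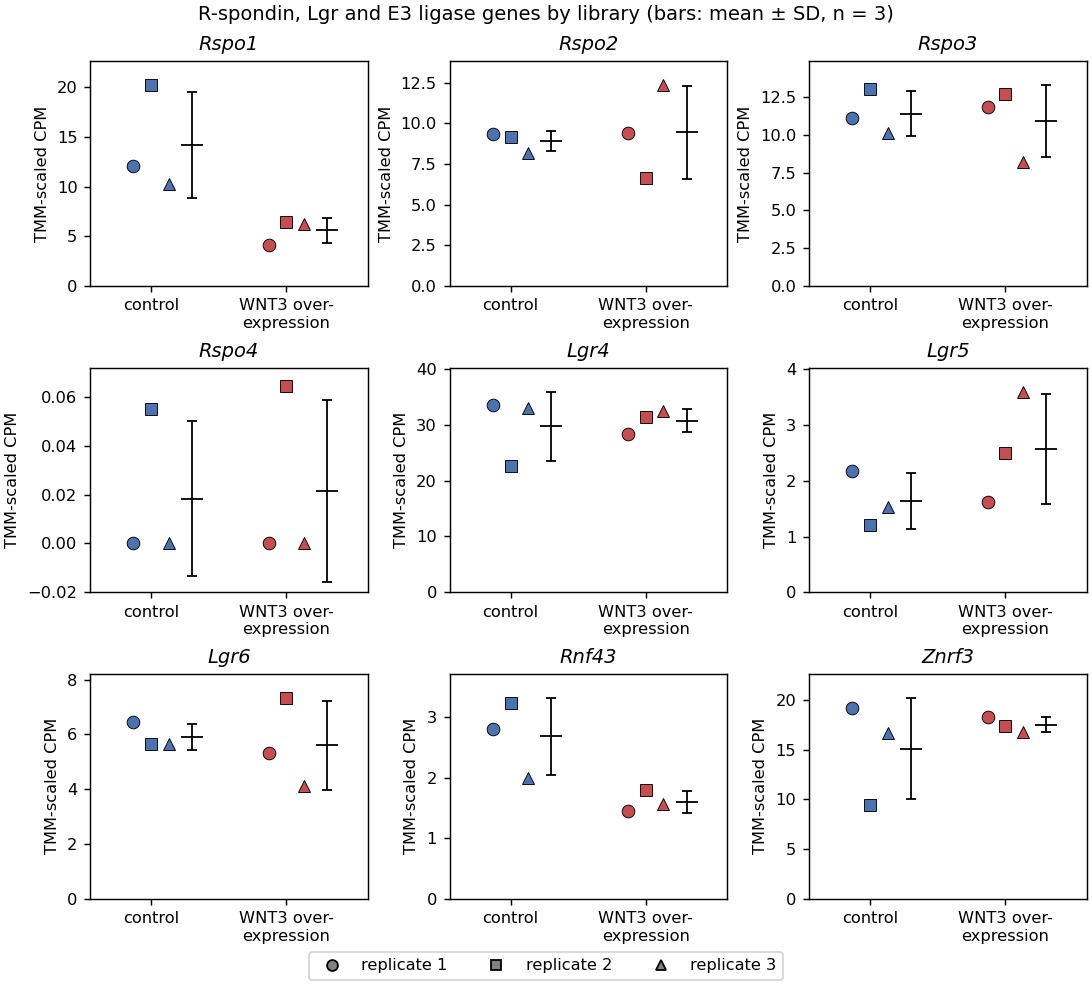
Expression of the 9 genes in TMM-scaled CPM (y axes start at 0, except for Rspo4) in 3 control and 3 WNT3 overexpression libraries. Marker shape gives the replicate number of the titles and black bars give mean ± SD (n = 3). Rspo1 and Rnf43 are the genes in which every overexpression library lies below every control, and control 2 is the highest library for Rspo1 and the lowest for Lgr4, Lgr5 and Znrf3.

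Levels between genes were compared in the deposited TPM, which is scaled to gene length. In the controls the order by mean TPM was Rspo1 (16.0 ± 2.41), Lgr4 (13.0 ± 4.85), Rspo3 (10.1 ± 1.09), Rspo2 (5.42 ± 1.41), Znrf3 (4.74 ± 2.27), Lgr6 (1.90 ± 0.47), Rnf43 (1.30 ± 0.24), Lgr5 (0.77 ± 0.34) and Rspo4 (0.01 ± 0.02; all SD, n = 3). Neighbours in this order had overlapping ranges, except Rspo3 with Rspo2 and Lgr5 with Rspo4. In overexpression the order was Lgr4 (15.01 ± 0.52), Rspo3 (11.3 ± 2.72), Rspo1 (7.53 ± 1.54), Rspo2 (6.74 ± 1.96), Znrf3 (6.06 ± 0.45), Lgr6 (2.07 ± 0.61), Lgr5 (1.33 ± 0.47), Rnf43 (0.92 ± 0.09) and Rspo4 (0.02 ± 0.04; all SD, n = 3). There the ranges of neighbours were apart for Lgr4 with Rspo3, Znrf3 with Lgr6 and Rnf43 with Rspo4. By mean, Rspo1 was thus first in the controls, above Lgr4 in 2 of 3 libraries, and in the third place in overexpression, above Rspo2 in 1 of 3 libraries. In controls 1, 2 and 3 Rspo1 was at 16.1, 18.3 and 13.5 TPM, and Lgr4 at 15.9, 7.39 and 15.6 TPM. The first place of Rspo1 by mean therefore rests on control 2. Rnf43 was above Lgr5 in 3 of 3 controls and below it in 3 of 3 overexpression libraries. TMM-scaled CPM divided by gene length gave all 9 genes the same place in both groups.

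Rspo1 encodes a secreted ligand that is also used as a marker gene of layer 4 excitatory neurons in mouse cortex. It lies on chromosome 4 at positions 124986430 to 125009099 on the plus strand (mm10, GENCODE M21), and the antisense gene Gm12930 overlaps its introns but none of its exons. The 250 bases before its start are shown because Rspo1 had the largest difference of the 9 genes. The same window is shown for the first RefSeq start of Rnf43, the other gene whose groups did not overlap, with CpG dinucleotides in capitals, read 5′ to 3′ on the gene's strand (RefSeq, GRCm38.p6). GENCODE M21 places the start of Rnf43 earlier, at 87662722, so by that annotation the Rnf43 window lies inside the gene.

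Rspo1, chr4:124986180-124986429, plus strand: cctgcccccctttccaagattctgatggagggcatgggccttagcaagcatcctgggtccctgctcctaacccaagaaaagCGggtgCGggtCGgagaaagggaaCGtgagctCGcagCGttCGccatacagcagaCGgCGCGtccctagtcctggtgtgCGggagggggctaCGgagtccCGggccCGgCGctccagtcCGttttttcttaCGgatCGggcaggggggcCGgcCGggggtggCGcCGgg

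Rnf43, chr11:87662837-87663086, plus strand: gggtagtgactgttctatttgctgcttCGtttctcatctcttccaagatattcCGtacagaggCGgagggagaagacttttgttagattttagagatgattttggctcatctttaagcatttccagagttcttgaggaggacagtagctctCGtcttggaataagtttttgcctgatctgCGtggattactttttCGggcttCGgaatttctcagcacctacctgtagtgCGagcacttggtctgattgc

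The Rspo1 window held 22 CpG dinucleotides and was 66.8% G or C, and the Rnf43 window held 8 and was 44.4% G or C, where the medians over 32851 windows of the same length were 6 and 52.4%. The window of the second RefSeq start of Rnf43, not shown, held 2 and was 45.2% G or C. RefSeq windows were matched for 5 of the 9 genes (Rspo1, Rspo4, Lgr4, Lgr6 and Rnf43, the last with 2 starts), and those of Rspo2, Rspo3, Lgr5 and Znrf3 were not analysed here. None of the 5 genes' windows held a TCF/LEF match (CTTTGAA or CTTTGAT or CTTTGTA or CTTTGTT, on either strand), which 14.8% of all windows held. The GC box GGGCGG, on either strand, was found in the windows of Rspo4 (2 matches) and Lgr6 (1 match), beside 32.7% of all windows, and the TATA box TATAAA, held by 12.4% of all windows, in none of them. These letters describe the windows and say nothing on what binds there.

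Controls 1, 2 and 3 had 516, 1102 and 518 counts of Rspo1, and overexpression libraries 1, 2 and 3 had 232, 399 and 447. In TMM-scaled CPM the control values of Rspo1 were 12.1, 20.2 and 10.2 (mean 14.2 ± 5.30, SD, n = 3). The overexpression values were 4.14, 6.41 and 6.26 (mean 5.60 ± 1.27, SD, n = 3). The groups did not overlap, control 2 was the highest library and overexpression library 1, which had the highest Wnt3, the lowest. The fitted log2 fold change was -1.34 ± 0.32 (SE), with a 95% interval from -2.07 to -0.61, that is 2.53-fold lower with an interval from 1.53-fold to 4.199-fold. The unadjusted p of the edgeR quasi-likelihood test was 0.00279, which ranked 53 among 22360 genes, and the adjusted p was 0.822. DESeq2 gave Rspo1 an adjusted p of 0.0314 at a log2 fold change of -1.34, and called 0.286% of the genes for which it gave one. That call held without control 2 (adjusted p = 0.0253 by DESeq2) and without control 3 (0.0127), and was lost without control 1 (0.0563) and without overexpression library 1 (0.377), 2 (0.191) or 3 (0.133). Without control 2 the edgeR log2 fold change was -0.99 ± 0.23 (SE, adjusted p = 0.598), and over all alternatives it ranged from -1.52 to -0.99. With the trend on gene length removed in each library, Rspo1 was at 12.6, 15.2 and 10.9 CPM in the controls, against 4.34, 6.68 and 6.48 CPM in overexpression, so that the groups stayed apart and control 2 was closer to the other controls. In bulk tissue, fewer cells that express a gene and less RNA of it per cell cannot be told apart.

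Rspo2, a ligand known for its part in limb and lung development, lies on chromosome 15 at 43020794 to 43170826 on the minus strand. It was at 9.36, 9.13 and 8.19 CPM in the controls, against 9.38, 6.63 and 12.4 CPM in overexpression. The controls lay close together and the overexpression libraries spread on both sides of them, with a log2 fold change of 0.09 ± 0.26 (SE), a 95% interval from -0.52 to 0.69, and an adjusted p of 0.927 by edgeR. Its direction turned without overexpression library 3, its highest library (log2 fold change -0.16).

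Rspo3, a ligand known for its part in blood vessel development, lies on chromosome 10 at 29452416 to 29535867 on the minus strand. The antisense gene Gm48159 shares 404 exonic bases with it, and as it is unknown whether strand was used in counting, reads there cannot be assigned to either gene. Rspo3 was at 11.1, 13.0 and 10.1 CPM in the controls, against 11.8, 12.7 and 8.21 CPM in overexpression. The groups overlapped fully, with a log2 fold change of -0.06 ± 0.24 (SE) and a 95% interval from -0.61 to 0.48 (adjusted p = 0.94 by edgeR). The sign turned without control 2 (0.04), without overexpression library 3 (0.10) and in all 3 fits on TPM.

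Rspo4, a ligand known for its part in nail formation, lies on chromosome 2 at 151842927 to 151874668 on the plus strand. It had 3 counts in control 2, 4 counts in overexpression library 2 and none in the other 4 libraries, so it was not tested and no fold is given. A count of 0 allows up to 3 counts, which is 0.0420 to 0.0704 CPM depending on the library, for counting error only.

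The make-up of R-spondin transcripts differed with Rspo1. Of the summed R-spondin TPM, Rspo1 made up 47.6%, 58.7% and 45.9% in control libraries 1, 2 and 3, and 22.7%, 32.7% and 32.7% in overexpression libraries 1, 2 and 3. That is a mean of 50.7 ± 6.95% against 29.4 ± 5.75% (SD, n = 3), and the groups did not overlap. Scaling between libraries cannot move the ratio of Rspo1 to Rspo3 within a library, but a trend on gene length can. In control 2, removal of that trend changed Rspo1 from 20.2 to 15.2 CPM and Rspo3 from 13.0 to 11.1 CPM. Shares and ratios were computed without that removal. The Rspo1 to Rspo3 ratio was 1.44, 2.04 and 1.34 in the controls, against 0.456, 0.662 and 0.996 in overexpression. Rspo1 was thus the most abundant R-spondin in every control, and Rspo3 was above it in every overexpression library. In overexpression library 3, however, Rspo1 and Rspo3 were nearly level, at 8.16 and 8.19 TPM, and Rspo2 was the most abundant, at 8.59 TPM. Rspo3 made up 33.0%, 28.8% and 34.3% of R-spondin TPM in the controls, against 49.9%, 49.4% and 32.8% in overexpression, with overlap. Rspo2 made up 19.4%, 12.4% and 19.8% in the controls, against 27.3%, 17.7% and 34.4% in overexpression, also with overlap. The summed R-spondin TPM was 31.5 ± 2.29 in controls and 25.6 ± 0.79 in overexpression (SD, n = 3), without overlap. An exact two-sided permutation test gave p = 0.1 for the Rspo1 share, the sum and the ratio to Rspo3, which is the smallest p that 3 libraries against 3 allow, and p = 0.3 for the shares of Rspo2 and Rspo3. Adjusted over the 8 shares, sums and ratios tested, these were 0.2 and 0.343. Any quantity without overlap gets that p of 0.1, so the test adds nothing to the lack of overlap. These 8 were chosen after their values were seen. The summed Lgr TPM, the summed ligase TPM, the Rspo3 to Rspo2 ratio and the Lgr4 share overlapped between the groups. They were not tested, and the adjustment does not cover them.

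**Figure D2:**
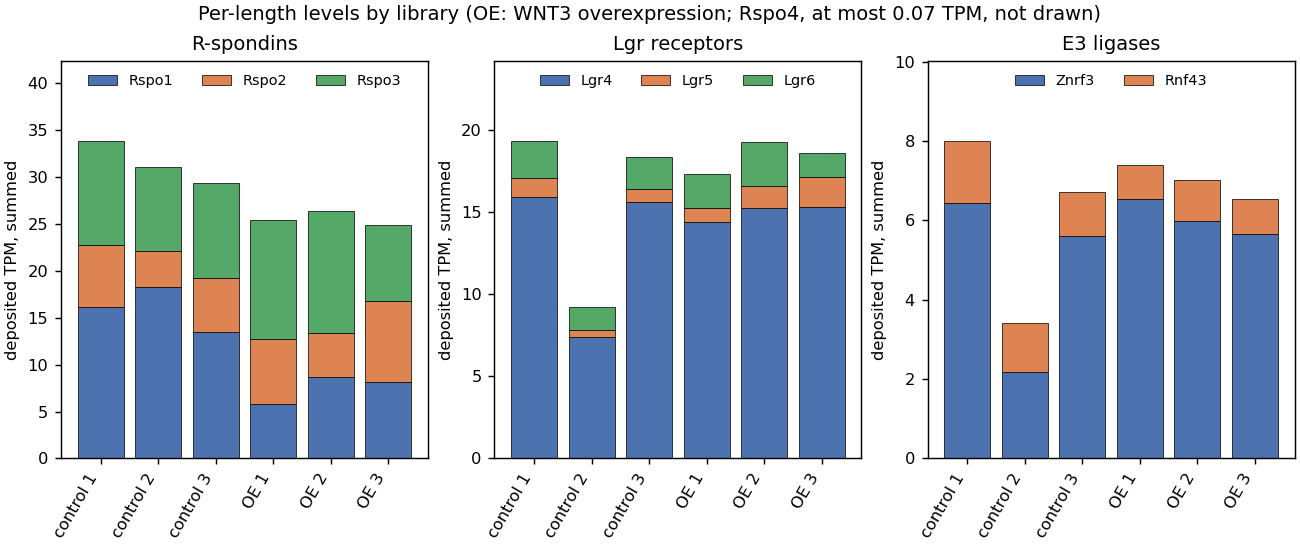
Deposited TPM (y axes start at 0) of the R-spondins, the Lgr receptors and the E3 ligases, stacked by gene for each of the 6 libraries. The Rspo1 segment is 13.5 to 18.3 TPM in the controls and 5.78 to 8.66 TPM in overexpression (OE), and the receptor and ligase bars of control 2 are the shortest, at 9.21 and 3.41 TPM. TPM has a fixed total per library, of which Bc1 holds 97702 in control 2, so bar heights are not scaled between libraries.

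Lgr4, the broadly expressed receptor of the family, lies on chromosome 2 at 109917647 to 110014257 on the plus strand. It was the most abundant receptor in every library, at 79.3% to 84.9% of the summed Lgr TPM. Its CPM was 33.5, 22.6 and 33.1 in the controls, against 28.4, 31.3 and 32.4 in overexpression. Control 2 was the lowest library and the other 2 controls lay above all overexpression libraries, with a log2 fold change of 0.05 ± 0.20 (SE), a 95% interval from -0.41 to 0.51 and an adjusted p of 0.952 by edgeR. Without control 2 the log2 fold change was -0.12 ± 0.11 (SE, adjusted p = 0.963), so the direction rests on that library.

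Lgr5, best known as a marker of intestinal stem cells, lies on chromosome 10 at 115450311 to 115587780 on the minus strand and had 66 to 257 counts per library. It was at 2.18, 1.21 and 1.52 CPM in the controls, against 1.62, 2.49 and 3.60 CPM in overexpression. Overexpression libraries 2 and 3 lay above every control, whereas overexpression library 1, the library with the highest Wnt3, lay below control 1. The log2 fold change was 0.65 ± 0.40 (SE), with a 95% interval from -0.26 to 1.56 and an adjusted p of 0.822 by edgeR. It was 0.33 without overexpression library 3, 0.48 without control 2, which was its lowest library, and 0.92 without control 1.

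Lgr6, known from stem cells of the hair follicle, lies on chromosome 1 at 134983301 to 135105276 on the minus strand. It was at 6.45, 5.63 and 5.64 CPM in the controls, against 5.33, 7.33 and 4.13 CPM in overexpression. The overexpression libraries lay on both sides of the controls, with a log2 fold change of -0.08 ± 0.27 (SE) and a 95% interval from -0.71 to 0.55 (adjusted p = 0.939 by edgeR). The value was 0.10 without overexpression library 3 and -0.32 without overexpression library 2. The shares of Lgr5 and Lgr6 in the summed Lgr TPM overlapped between the groups, at 4.84 ± 0.79% and 7.20 ± 2.39% for Lgr5 and 12.6 ± 2.18% and 11.2 ± 3.08% for Lgr6 in controls and overexpression (SD, n = 3; exact two-sided permutation p = 0.2 for Lgr5 and 0.5 for Lgr6).

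Rnf43, a ligase known as a tumour suppressor of the gut, lies on chromosome 11 at 87662722 to 87735539 on the plus strand. It had 120, 177 and 101 counts in the controls, against 81, 112 and 112 in overexpression. Its control values were 2.82, 3.25 and 1.998 CPM (mean 2.69 ± 0.63, SD, n = 3), and its overexpression values 1.44, 1.80 and 1.57 CPM (mean 1.604 ± 0.18, SD, n = 3). Every overexpression library lay below every control, but the highest overexpression library (1.80 CPM) and the lowest control (1.998 CPM) lay closer together than the SD of the controls. The log2 fold change was -0.74 ± 0.31 (SE), with a 95% interval from -1.46 to -0.03, an unadjusted p of 0.0437 and an adjusted p of 0.822 by edgeR. Of the 6 edgeR fits that leave out a single library, the unadjusted p stayed under 0.05 only without control 3 (0.0272). It was 0.0698 without control 2 (log2 fold change -0.58) and 0.0638 to 0.119 over the 5 fits that lost it, and 0.0746 with the replicate block. Over all 25 alternatives it was under 0.05 in 11. DESeq2 did not call Rnf43 (adjusted p = 0.66). In TPM, Rnf43 was at 1.57, 1.24 and 1.10 in the controls, against 0.855, 1.02 and 0.868 in overexpression, and the log2(TPM + 1) difference was -0.26 (adjusted p = 0.717 by limma).

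Znrf3, the closest relative of Rnf43, lies on the same chromosome at 5276324 to 5444847 on the minus strand. It was at 19.2, 9.43 and 16.7 CPM in the controls, against 18.3, 17.4 and 16.8 CPM in overexpression. The overexpression libraries lay close together, and control 2 lay far below all others. The log2 fold change was 0.21 ± 0.27 (SE), with a 95% interval from -0.41 to 0.83 and an adjusted p of 0.841 by edgeR, and it was -0.034 ± 0.13 (SE) without control 2. Control 2, whose values decline with gene length, was the lowest library for Znrf3 and Lgr4, which are longer than 89.4% and 77.9% of the tested genes, and the highest for Rspo1, longer than 28.4%. It was also the highest for Rnf43, longer than 70.8%, and level with control 3 for Lgr6, longer than 87.6%. With the length trend removed, Znrf3 was at 17.8, 13.8 and 15.2 CPM in the controls, against 16.8, 16.1 and 15.7 CPM in overexpression. The ratio of Znrf3 to Rnf43 TPM within a library was 4.11, 1.75 and 5.11 in the controls, against 7.65, 5.84 and 6.53 in overexpression. The groups did not overlap, with means of 3.65 ± 1.73 and 6.67 ± 0.91 (SD, n = 3). The exact two-sided permutation p was 0.1, which any quantity without overlap gets. The difference in this ratio was 3.02 with all libraries and 2.06 without control 2, and it was not computed with the length trend removed.

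**Figure D3:**
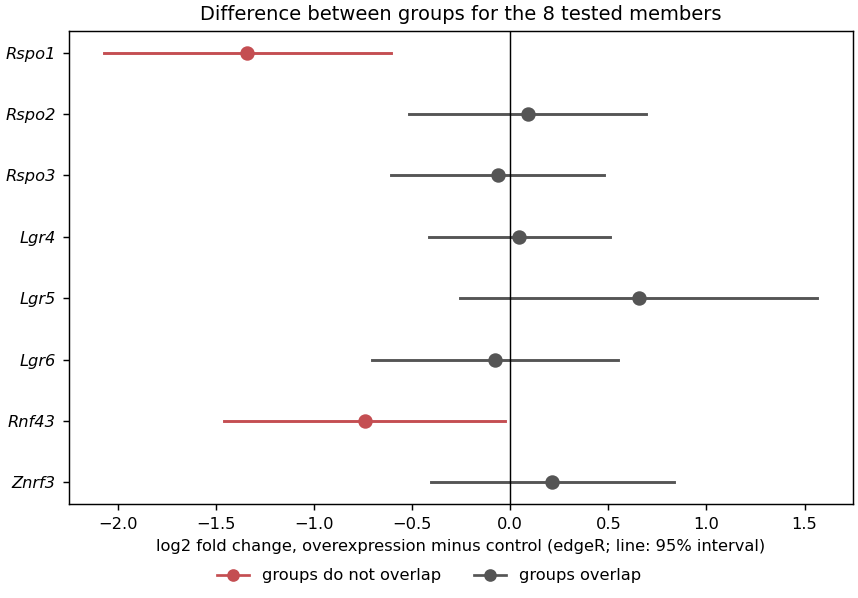
Log2 fold changes (x axis, overexpression minus control, edgeR) of the 8 tested genes with 95% intervals. The intervals of Rspo1 (-2.07 to -0.61) and Rnf43 (-1.46 to -0.03) lie below 0, before any adjustment for the number of genes tested, and the other 6 span 0.

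Among other genes of the receptor complex, of 34 tested genes for Frizzled and Lrp receptors, Dishevelled proteins, proteoglycans and partners, 19 were above 0 and 15 below, with a median log2 fold change of 0.07. None passed the adjusted p, and 2 had an unadjusted p under 0.05 (5.88%, beside 4.65% of all tested genes). Groups did not overlap in 4 higher and 3 lower genes, or 20.6% of the list, beside 11.9% of all tested genes. The smallest p was that of Fzd10, a Frizzled receptor, with a mean of 2.13 ± 0.07 CPM in control against 0.63 ± 0.19 CPM in overexpression (SD, n = 3), and the receptor genes Fzd7 and Fzd4 had log2 fold changes of 0.65 ± 0.28 and 0.65 ± 0.29 (SE). Of 18 tested target and feedback genes outside the 9, 10 were above 0 and 8 below (median 0.06), with none called, 3 without overlap (16.7%) and 1 at an unadjusted p under 0.05 (5.56%). The gene with that p was Kremen2, a co-receptor of Dkk inhibitors, at 0.16, 1.41 and 0.36 CPM in the controls, against 0.09, 0.21 and 0.07 CPM in overexpression, with overlap. Its relative Kremen1 had a log2 fold change of 0.46 ± 0.23 (SE). Axin2, the general target gene of the pathway, was at 23.2, 16.4 and 26.1 CPM in the controls, against 25.2, 21.0 and 21.4 CPM in overexpression, and for Lef1, which encodes a factor that acts with beta-catenin, the log2 fold change was 0.51 ± 0.26 (SE), with overlap. Of 14 tested Wnt ligand genes, 6 were above 0 and 8 below (median -0.22), and 2 had an unadjusted p under 0.05 (14.3%), Wnt3 itself and Wnt9a (-0.65 ± 0.25, log2 ± SE), ahead of Wnt7a (-0.66 ± 0.30). In these 3 genes (21.4% of the list) the groups did not overlap.

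Marker genes of the cell types of the tissue were measured beside Rspo1 and Rnf43. All 6 markers of cortical layers 2 to 4 were tested, 3 above 0 and 3 below, with none at an unadjusted p under 0.05. Their summed level was 421 to 707 CPM in controls and 511 to 728 CPM in overexpression, with control 2 lowest. Within the list, control 2 was the lowest library for Rasgrf2 (131 CPM), Cux1 (84.5) and Cux2 (102) and the highest for Whrn (38.7). It was neither for Rorb and Scnn1a. Control 2 is also the library whose values decline with gene length, and the sum was not corrected for that. The layer gene Rorb was at 78.4 ± 16.0 and 75.5 ± 14.0 CPM in controls and overexpression, and Scnn1a at 3.18 ± 0.37 and 2.71 ± 1.83 CPM (SD, n = 3). The 5 markers of excitatory cortical neurons summed to 1121 to 1283 CPM and 1092 to 1234 CPM, most of it from Slc17a7. Another of them, Nrn1, lay without overlap at 221 to 264 CPM in controls and 175 to 202 CPM in overexpression (log2 fold change -0.40 ± 0.16, SE, unadjusted p = 0.0345, adjusted p = 0.822 by edgeR). Of 16 marker lists, 4 had summed levels that did not overlap between the groups. Neutrophil markers (4 of 5 tested, all above 0) summed to 5.18 to 7.12 CPM in controls and 12.002 to 43.8 CPM in overexpression. An unadjusted p under 0.05 by edgeR was reached by 3 of these 4, beside 4.65% of all tested genes. Endothelial markers (8 tested, 6 above 0) summed to 214 to 239 CPM and 266 to 394 CPM, and those of pericytes and smooth muscle (8 tested, 5 above 0, median log2 fold change 0.04) to 195 to 216 CPM and 224 to 265 CPM. Over all libraries, 92.1 to 159 CPM of the pericyte and smooth muscle sums came from Rgs5, and Tagln, with the smallest p of that list, was lower without overlap (log2 fold change -1.22 ± 0.40, SE, unadjusted p = 0.0162, adjusted p = 0.822 by edgeR). Oligodendrocyte precursor markers (5 tested, 3 below 0) summed to 175 to 181 CPM and 143 to 172 CPM, but each of the 5 overlapped on its own. Olig1 had the smallest p of that list, at 48.5, 81.8 and 37.7 CPM in controls against 20.7, 33.1 and 38.5 CPM in overexpression. Cspg4 and Gpr17 were above 0. In some lists whose sums overlapped, all tested markers had fold changes on 1 side of 0. They were below 0 for mature oligodendrocytes (7 tested), microglia (6) and ependymal cells (4), and above 0 for choroid plexus (5). No marker of these lists was at 0 in all libraries, and their part in the differences of Rspo1 and Rnf43 was not tested.

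Among 13889 other named genes with a mean of at least 1 CPM, the profiles nearest to Rspo1 over the 6 libraries were those of Yjefn3 and Ier5l, with root mean square differences of 0.16 and 0.18 in log2 CPM after centring, against a median of 0.78 over all these genes. Both had log2 fold changes below 0, at -1.14 and -1.28. The profiles nearest to Rnf43 were those of Emid1 and Sh2d3c, at 0.08 and 0.10 against a median of 0.49, with log2 fold changes of -0.67 and -0.62. With 6 libraries and this many genes, close profiles are a description only.

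**Figure D4:**
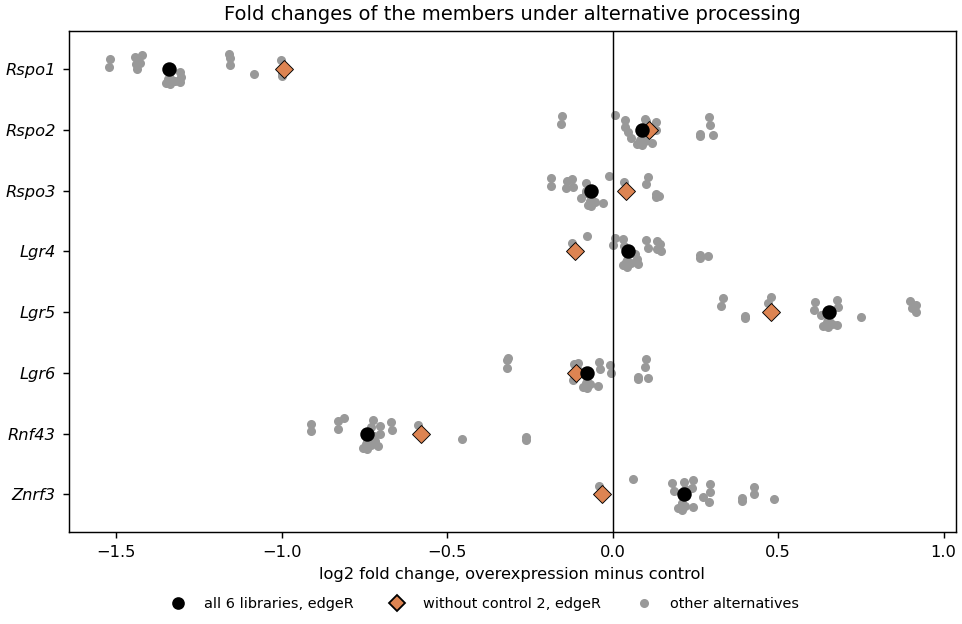
Log2 fold changes (x axis, overexpression minus control) of the 8 tested genes with all 6 libraries (black), without control 2 (orange) and under the other alternatives (grey). The values of Rspo1 run from -1.52 to -0.99, those of Rnf43 from -0.91 to -0.26 and those of Lgr5 from 0.33 to 0.92, whereas Rspo2, Rspo3, Lgr4, Lgr6 and Znrf3 fall on both sides of 0.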

How the data were processed

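Per the labels' protocols, Trizol was used to extract RNA and a TruSeq kit to build strand-specific libraries. Without roles, the submitters' processing notes name STAR 2.5.3a, Cuffnorm, DESeq 1.16.1, FastQC 0.11.5 and the build mm10. Which program counted reads, with which annotation and strand setting, is not given in the sources used here. Raw counts per gene make up the deposited count table, and the deposited TPM table holds the authors' values scaled to a fixed total per library. Columns were matched to samples by library name, and groups were taken from the titles.

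Genes were kept by filterByExpr (minimum count 10) and tested over the whole table with the edgeR 4.0.16 quasi-likelihood test (R 4.3.3, TMM factors, no term but group), with Benjamini-Hochberg adjustment at 0.05. Standard errors come from the log2 fold change and F, and 95% intervals use the t distribution. Alternatives were other scaling factors and filters, DESeq2 1.42.0, limma 3.58.1 (voom, and limma-trend on TPM with a pseudocount of 1 or 0.1 before log2), the replicate block, omission of each library and omission of mitochondrial and haemoglobin genes. Removal of a lowess trend on gene length (the ratio of deposited counts to TPM), DESeq2 without each library and the alternatives for ratios were chosen after seeing the data. The script was tested on simulated data. Members and lists were chosen with earlier results of these data known. The genes named were all 9 members, Wnt3, Axin2, Lef1, the 3 with the smallest p of each pathway list and the 2 nearest profiles of members without overlap. Slc17a7, Rorb, Scnn1a, Nrn1, Rgs5, Tagln, Olig1, Cspg4, Gpr17 and the antisense genes were added after their values were seen. So were the shares, sums and ratios tested by exact permutation. Promoter windows were taken from RefSeq for 5 of the 9 members.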

Additional observations from a re-analysis of the deposited data

How the results depend on the processing

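Rspo1 and Rnf43 kept a log2 fold change below 0 and Lgr5 one above 0 under all 25 alternatives. The number of members called was 0 with edgeR and limma under each setting and 1 (Rspo1) by DESeq2, which called 0 to 1 with single libraries left out. Groups did not overlap in 2 members with all libraries and in 2 to 4 with single libraries left out, where 18.9% to 25.5% of all genes did not overlap. In fits on TPM, Rspo3 was at 0.13, 0.14 and 0.13 and Lgr6 at 0.076, 0.11 and 0.076, for log2(TPM + 1), log2(TPM + 0.1) and a mean TPM of at least 0.5. With the length trend removed Lgr4 was at -0.079. With single libraries left out the edgeR log2 fold change ranged from -0.16 to 0.29 for Rspo2, -0.19 to 0.10 for Rspo3, -0.12 to 0.14 for Lgr4, -0.32 to 0.10 for Lgr6 and -0.034 to 0.43 for Znrf3, and the cause was not tested. By DESeq2, Rspo3, Lgr4 and Znrf3 were at 0.033, -0.12 and -0.042 without control 2, and Rspo2, Rspo3 and Lgr6 at -0.152, 0.11 and 0.10 without overexpression library 3. The share of Rspo1 in R-spondin TPM differed by -23.8 to -17.4 percentage points without single libraries and by -18.7 in raw counts, and the Znrf3 to Rnf43 ratio by 2.06 to 3.75.

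The labels do not say whether replicate numbers pair the libraries. Deviations from the group means of same-numbered libraries correlated at 0.06, -0.02 and -0.01, and 0 of 3 controls correlated best with the overexpression library of its own number. With 3 libraries in a group, whose deviations sum to 0, these values cannot decide on pairing. With the replicate block 0 members were called, Rspo1 had a log2 fold change of -1.31 (adjusted p = 0.873 by edgeR) and 751 genes had an unadjusted p under 0.05, against 1040 without it. Depth limits Rspo4 most, with 7 counts over all libraries, then Rnf43 with 703 and Lgr5 with 739.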
